A study of Mus musculus with 9 samples.

Results

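Mice that lack the whole Ms4a gene cluster were compared with mice that lack Ms4a6c alone, by RNA-seq of the main olfactory epithelium. The comparison used 6 of the 9 mice of the study, 3 Ms4a cluster knockout mice and 3 Ms4a6c knockout mice, while 3 wild-type mice served only to say which line had moved. All genes with at least 10 expected counts summed over the 9 mice were included, which was 23225 of the 55291 genes in the table. The mice were 8 to 12 weeks old, each library came from a single mouse, and the genotype labels read C57BL/6, C57BL/6; Ms4a6c-/- and C57BL/6; Ms4a cluster-/-. The cluster line was made with CRISPR/Cas9 in the Datta laboratory, and the Ms4a6c line was made by KOMP through homologous recombination. Wild-type mice were littermate controls, but the labels do not say of which line, and they give no sex. What a deletion does and what else each line carries cannot be told apart in this design, because each genotype came from its own line. In whole tissue, fewer cells of a type and less RNA per cell cannot be told apart either.

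The olfactory epithelium holds sensory neurons that each express a single odorant receptor, a G protein-coupled receptor that signals through the olfactory G protein, adenylyl cyclase and a cyclic nucleotide-gated channel. Sustentacular cells, basal stem cells, glands and resident macrophages surround these neurons. MS4A proteins span the membrane several times and are best known from immune cells, where Ms4a1 encodes CD20 of B cells and several Ms4a4, Ms4a6 and Ms4a7 genes are expressed in the macrophage lineage. They are also found in necklace neurons, a small group of sensory neurons that use cyclic GMP. The study used both lines to examine the role of these genes in the olfactory system, and the comparison of the lines asks what parts a loss of the whole cluster from a loss of Ms4a6c.

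Libraries held between 13954591 and 21987174 expected counts. Values are CPM, counts scaled to the depth of each library with TMM factors, and 3 counts in a library were taken as the lowest number that can be told from 0, a limit that covers counting error only. Transcripts of nasal gland genes filled 2 libraries, called gland-rich below. The summed level of a list of gland genes was 365981 CPM in Ms4a cluster knockout mouse 2 and 355526 CPM in wild-type mouse 1. It was between 19304 and 54154 CPM in the other 7 mice. Only part of the list rose. Bpifb9b was at 144749 and 148513 CPM in the 2 gland-rich mice. Muc5b, at 284 and 366 CPM there, and Bpifa1, at 7255 and 7836 CPM, did not stand above the other mice. Xist, expressed from the inactive X chromosome of females, was at 247 to 366 CPM in 5 mice and at 0 to 2.61 CPM in 4 mice, with each genotype holding mice of both kinds. Omp, the marker of mature sensory neurons, was between 4018 and 5215 CPM in every mouse.

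The Ms4a locus was the plainest difference between the lines. Each of the 25 locus genes in the table had 0 counts in all 3 Ms4a cluster knockout mice, while the same genes summed to 281, 154 and 189 counts in the 3 Ms4a6c knockout mice. Ms4a6c itself was at 0 CPM in every Ms4a cluster knockout mouse, at 0, 0.124 and 0.127 CPM in the Ms4a6c knockout mice, and at 3.84, 4.99 and 4.66 CPM in wild-type mice. The target of the single knockout was thus at or under the limit in all 6 knockout mice, and the difference between the lines did not pass (edgeR adjusted p = 0.503, from its quasi-likelihood test adjusted by Benjamini and Hochberg). Of the 13 locus genes with enough counts to be tested, 5 passed the same test and all 5 were lower in the Ms4a cluster knockout, beside 0.443% of all genes passing in either direction and 0.207% in that direction. All 13 were lower at an unadjusted p under 0.05, beside 4.7% of all genes. With 0 counts in every Ms4a cluster knockout mouse, these genes reached the count filter through the other mice alone. They could differ between the lines in that direction only. Their shared direction is therefore no result, and their shares beside those of all genes measure no enrichment.

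Ms4a7, a macrophage member of the family, was at 3.85, 2.48 and 3.12 CPM in Ms4a6c knockout mice and at least 15.8-fold lower in the Ms4a cluster knockout, computed against the mean limit of 3 counts per library (edgeR adjusted p = 0.000294). Ms4a6b was at 1.52, 1.3 and 2.17 CPM in the Ms4a6c knockout and at least 8.31-fold lower in the cluster knockout (edgeR adjusted p = 0.00143). Its relative Ms4a6d was at 1.27, 0.868 and 1.21 CPM there, and lower in the cluster knockout by at least 5.59-fold (edgeR adjusted p = 0.00225). No value of the lines overlapped for these genes. Wild-type mice held 2.56, 3.66 and 3.13 CPM of Ms4a6b, above every Ms4a6c knockout mouse, but that difference did not pass (edgeR adjusted p = 0.302). Of the tested locus genes, only Ms4a6c passed between the Ms4a6c knockout and wild type. AW112010, annotated as a long intergenic noncoding RNA of the locus, was at 2.42, 1.12 and 1.66 CPM in the Ms4a6c knockout and lower in the cluster knockout by at least 8.66-fold (edgeR adjusted p = 0.00296). Ms4a1, which encodes CD20, rested on 13, 26 and 8 counts in the Ms4a6c knockout mice and on 0 in the cluster knockout, which made it at least 4.43-fold lower. It passed only just (edgeR adjusted p = 0.05 to 2 decimals), and the call was lost in 15 of 18 alternatives, where its adjusted p ran from 0.00089 to 0.185. Ms4a3 was at 0.287, 0.62 and 1.4 CPM in the Ms4a6c knockout and did not pass (edgeR adjusted p = 0.0942). Ms4a14, at 0.287, 0.372 and 0.573 CPM, did not pass either (edgeR adjusted p = 0.103). For Ms4a4a, Ms4a4b, Ms4a4c, Gm8369 and BE692007, the remaining tested genes of the locus, the mean of the Ms4a6c knockout lay near or under the limit itself, and they did not pass (edgeR adjusted p between 0.231 and 0.375). Another 7 locus genes had 0 counts in all 9 mice.

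Across all genes, 103 passed an adjusted p of 0.05 between the lines, 55 of them (0.237% of those tested) higher in the Ms4a cluster knockout and 48 lower. At an unadjusted p under 0.05, 4.68% of genes were higher and 4.7% lower. Against wild type, 6 genes (0.0258%) passed in the cluster knockout and 101 (0.435%) in the Ms4a6c knockout. The median log2 fold change over all genes was 0.01 between the lines. Without Ms4a6c knockout mouse 2 or 3 the count between the lines was 66 and 67, and for the cluster knockout against wild type it was 3 without Ms4a6c knockout mouse 3, wild-type mouse 2 or wild-type mouse 3. The count for the Ms4a6c knockout against wild type was 159 without cluster knockout mouse 2, 64 without Ms4a6c knockout mouse 3, 59 without wild-type mouse 2 and 60 without wild-type mouse 3. All 103 genes had values that did not overlap between the lines, as did 16% of all genes tested.

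Outside the Ms4a locus it was mostly the Ms4a6c knockout that stood away from wild type. Of the 98 genes outside the locus that passed, 94 lay farther from wild type in the Ms4a6c knockout, and 74 of these passed the test against wild type in that line. The median distance from wild type over the 98 genes, as an absolute log2 fold change, was 0.89 in the Ms4a6c knockout and 0.15 in the cluster knockout. Among the 98, only Wdfy1 passed against wild type in the cluster knockout, and in none did both lines pass. Ms4a6c, which did not pass between the lines, passed against wild type in the cluster knockout (edgeR adjusted p = 0.0128). It also passed in the Ms4a6c knockout (edgeR adjusted p = 0.00342). For 23 of the 98 neither line passed. The 2 comparisons with wild type share the same 3 mice, and the gland-rich wild-type mouse 1 is among them.

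**Figure D1:**
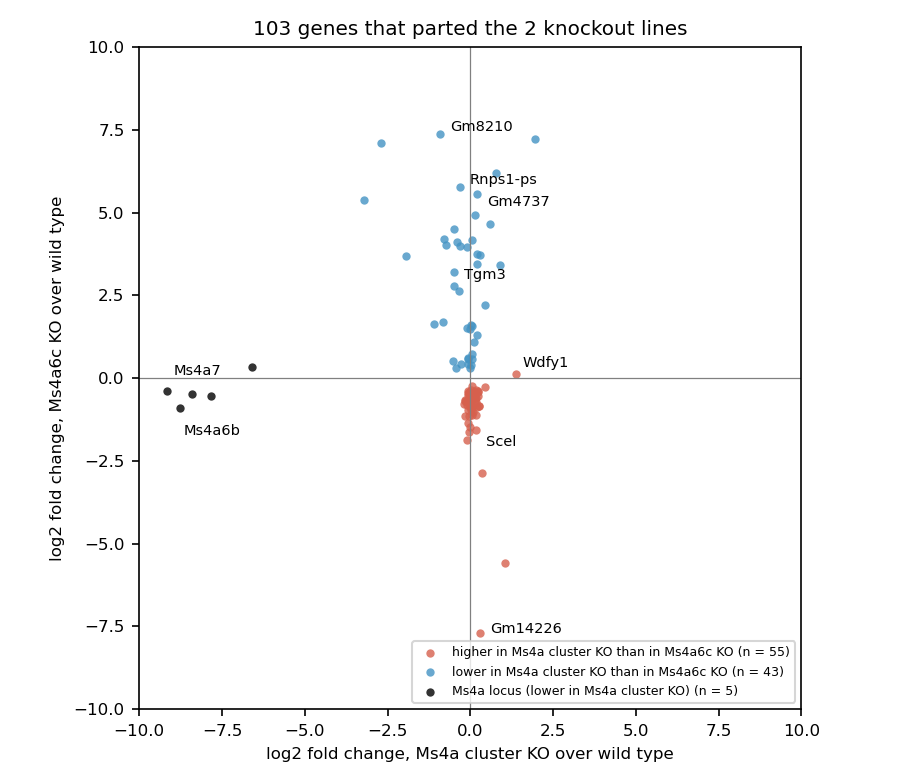
Log2 fold change from wild type in the Ms4a cluster knockout (horizontal axis) and in the Ms4a6c knockout (vertical axis) for the 103 genes with an adjusted p under 0.05 between the lines. The 5 Ms4a locus genes (black) lie along the horizontal axis, and 94 of the other 98 genes lie farther from 0 on the vertical than on the horizontal axis; values of genes with no counts in a line depend on the prior count of the fit.

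Wdfy1 set the cluster knockout apart from both other groups. No other gene outside the Ms4a locus passed both between the lines and between the cluster knockout and wild type. Whether the deletion or something else in the line raised it was not tested. WDFY1 is an adaptor of endosomes that takes part in Toll-like receptor signalling. It was at 121, 99.2 and 113 CPM in Ms4a cluster knockout mice, at 45.4, 47.3 and 48 CPM in Ms4a6c knockout mice and at 39.8, 41.5 and 47.7 CPM in wild-type mice. Every cluster knockout mouse lay above all 6 other mice, with a log2 fold change of 1.25 ± 0.09 (SE) over the Ms4a6c knockout (edgeR adjusted p = 8.27e-05) and of 1.37 over wild type (edgeR adjusted p = 0.000527). The gene lies on the minus strand at chr1:79702262-79776143 of GRCm38, far from the Ms4a locus on chromosome 19. Its call held in every alternative that was run.

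Several well-known genes were lower in the Ms4a6c knockout, and so higher in the cluster knockout. Gng13 encodes the gamma subunit of the G protein of olfactory sensory neurons. It was at 421, 332 and 367 CPM in the cluster knockout, at 179, 198 and 203 CPM in the Ms4a6c knockout and at 347, 371 and 359 CPM in wild type, a log2 fold change of 0.95 ± 0.09 (SE) between the lines (edgeR adjusted p = 0.00073). The cluster knockout and wild type overlapped, while the Ms4a6c knockout lay apart from both. Scel encodes sciellin, a precursor of the cornified envelope, and was at 5.16, 5.68 and 4.76 CPM in the cluster knockout against 1.76, 1.24 and 1.59 CPM in the Ms4a6c knockout (log2 fold change 1.74 ± 0.18, SE; edgeR adjusted p = 0.00141). Cd59a, an inhibitor of the terminal complement complex, was at 15.3, 15.3 and 15.7 CPM against 7.13, 6.39 and 6.82 CPM (log2 fold change 1.18; edgeR adjusted p = 0.000178). Id2 encodes an inhibitor of bHLH transcription factors. It was at 48.7, 58.4 and 46.3 CPM in the cluster knockout and at 22.9, 22.8 and 27 CPM in the Ms4a6c knockout (log2 fold change 1.08; edgeR adjusted p = 0.00054). Wild-type mice held 4.44 to 4.76 CPM of Scel, 14.3 to 15.6 CPM of Cd59a and 44 to 45.8 CPM of Id2, all above the Ms4a6c knockout.

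Further genes were named for a small adjusted p or a large change among those higher in the cluster knockout, so their shared direction is no result. The smallest adjusted p of all belonged to a gene lower in the cluster knockout, Capza1-ps1 (edgeR adjusted p = 4.61e-09). Stxbp6, which binds SNARE proteins, was at 42, 57.9 and 40.6 CPM in the cluster knockout and at 15.9, 16.4 and 17.6 CPM in the Ms4a6c knockout (log2 fold change 1.49; edgeR adjusted p = 0.00054). Acp1, a small phosphotyrosine phosphatase, was higher by a log2 fold change of 1.10, the ubiquitin ligase G2e3 by 0.97, and Ap4s1, a subunit of the AP-4 vesicle coat, by 0.90. Snapc1, part of the complex that starts small nuclear RNA transcription, was higher by 0.82, the secreted glycoprotein Azgp1 by 0.90, Olfml3, a secreted olfactomedin-like protein, by 0.73 and the retinol dehydrogenase Rdh14 by 0.65. Prrg4 was higher by 1.29, but its call was lost in 8 of 18 alternatives. The uncharacterised Gm14226 was at 6.76, 6.68 and 5.71 CPM in the cluster knockout and rested on 1 count in the Ms4a6c knockout, a ratio of 356 with a 95% interval from 63.4 to 14091 that covers counting error only. Gm48508 had 0 counts in the Ms4a6c knockout and was at least 4.3-fold higher in the cluster knockout, a call lost in 12 of 17 alternatives. Gm43534 was higher by 3.24 on the log2 scale.

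**Figure D2:**
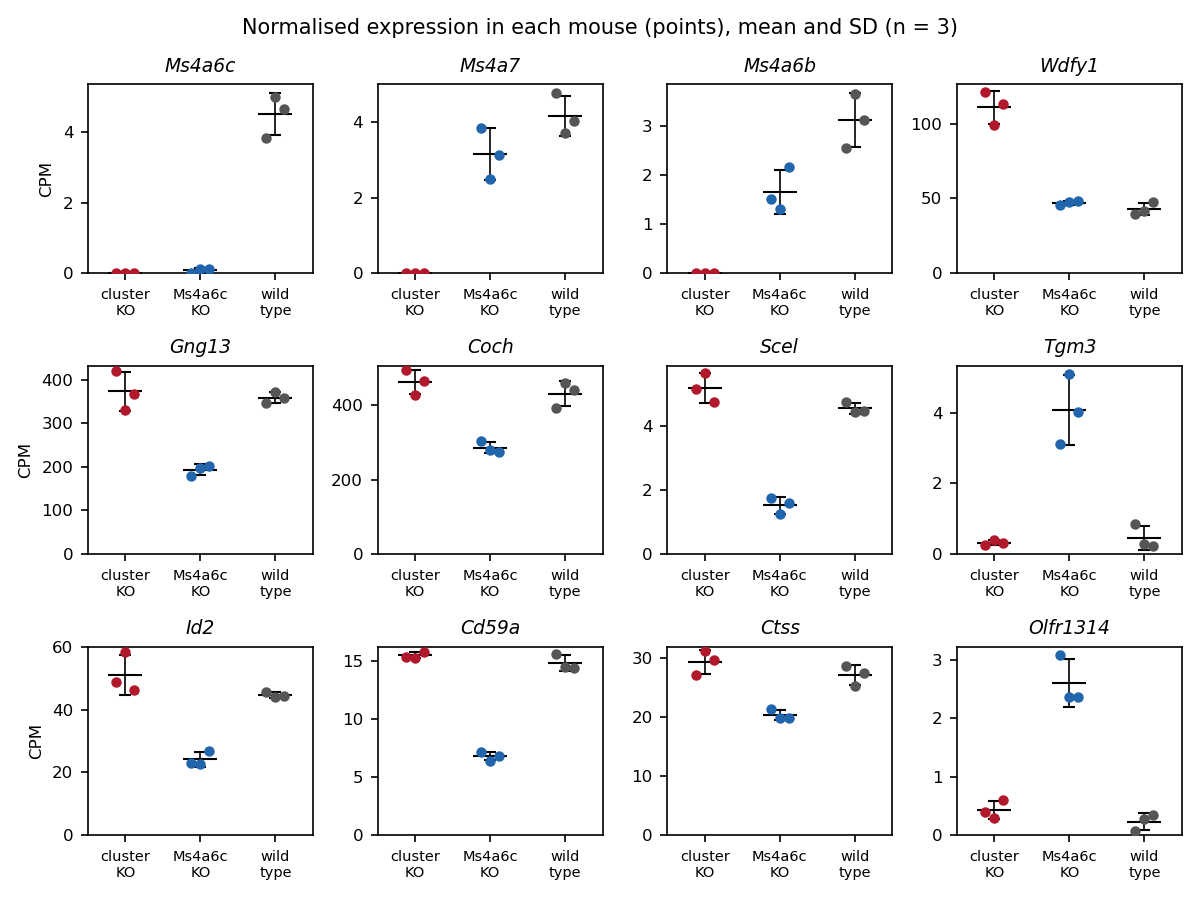
Normalised expression in CPM (vertical axes, each from 0) of 12 genes in every mouse, with the mean and SD of the 3 mice of a line; Tgm3 was added after its values were seen. Ms4a7 and Ms4a6b are at 0 in the cluster knockout, Wdfy1 is high in the cluster knockout alone, and Gng13, Coch, Scel, Id2, Cd59a, Ctss, Tgm3 and Olfr1314 set the Ms4a6c knockout apart from the 6 other mice.

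Among genes lower in the cluster knockout, and high in the Ms4a6c knockout, were enzymes, carriers and noncoding RNAs. Lbp, the serum protein that binds bacterial lipopolysaccharide, was at 30.8, 27.8 and 35.2 CPM in the cluster knockout, at 74, 107 and 88.7 CPM in the Ms4a6c knockout and at 27.7, 34.2 and 29.1 CPM in wild type (log2 fold change -1.51 ± 0.14, SE; edgeR adjusted p = 0.00054). The long noncoding RNA Miat was at 3.81, 3.39 and 5.41 CPM in the cluster knockout against 66.9, 43.9 and 37.8 CPM in the Ms4a6c knockout (log2 fold change -3.53; edgeR adjusted p = 0.000325). Wild-type mice held 2.13 to 4.61 CPM of Miat, so that the Ms4a6c knockout again stood alone. Egln3, an oxygen-sensing prolyl hydroxylase, was at 5.01, 7.38 and 4.66 CPM against 15.4, 16.1 and 15.3 CPM (log2 fold change -1.48; edgeR adjusted p = 0.00254). Adi1 and Sqor, enzymes of methionine salvage and of sulfide oxidation, had log2 fold changes of -0.67 and -0.70 between the lines, Ppip5k1, an inositol pyrophosphate kinase, of -0.64 and the kinase-like Styk1 of -2.97. Gm43335 had 0 counts in the cluster knockout and was at least 13.7-fold lower there than in the Ms4a6c knockout. Chosen after their values were seen, Tgm3, the epidermal transglutaminase, was at 3.12, 5.09 and 4.01 CPM in the Ms4a6c knockout and at 0.25, 0.399 and 0.301 CPM in the cluster knockout (log2 fold change -3.70), and the monocarboxylate transporter Slc16a1 had a log2 fold change of -1.10. Scel and Tgm3 are both genes of the cornified envelope, and they differed between the lines in opposite directions.

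By class, 77 of the 103 genes were protein coding, 53 higher and 24 lower in the cluster knockout, with a median absolute log2 fold change of 0.79. All 18 pseudogenes among the 103 were lower, with a median of 4.32, and of 8 other noncoding or unclassified genes 2 were higher and 6 lower. The share of each class among all genes tested was not counted, so these counts do not show an excess of any class. A gene with at least 90% identity over 300 bases or more elsewhere among the tested genes was found for 43 of the 103 genes (41.7%) and for 3895 of all 23225 (16.8%). RSEM divides reads between such genes by estimate, so their separate values are uncertain. Ccl21b and Gm10591, which had the same value as each other in every mouse, are an example of a pair that cannot be told apart.

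In 9 groups of near-identical genes, made up of 20 of the 103 genes, members moved in opposite directions. The sequences of 4 such pairs show how little separates them. Each stretch of 80 bases is taken from a coding exon of the first gene and the matching place in the second, in GENCODE M21 transcripts of GRCm38, read 5′ to 3′ on the gene's own strand, with the differing bases in capitals. The stretches lie at chr2:155062218-155062297 (minus strand, exon 9 of Ahcy), chr16:46153915-46153994 (minus strand, Gm4737), chr3:104825045-104825124 (minus strand, exon 10 of Capza1), chr1:105456703-105456782 (plus strand, Capza1-ps1), chr17:24422158-24422237 (plus strand, exon 7 of Rnps1), chr6:7982846-7982925 (minus strand, Rnps1-ps), chr4:42983497-42983576 (minus strand, exon 13 of Vcp) and chrX:104346673-104346752 (minus strand, Vcp-rs).
Ahcy: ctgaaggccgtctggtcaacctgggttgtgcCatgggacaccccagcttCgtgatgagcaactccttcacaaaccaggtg
Gm4737: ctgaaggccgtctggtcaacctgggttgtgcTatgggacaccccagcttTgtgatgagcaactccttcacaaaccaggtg
Capza1: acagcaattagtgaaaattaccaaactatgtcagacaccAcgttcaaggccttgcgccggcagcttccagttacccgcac
Capza1-ps1: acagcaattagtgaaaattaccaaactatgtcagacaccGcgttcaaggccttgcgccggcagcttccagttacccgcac
Rnps1: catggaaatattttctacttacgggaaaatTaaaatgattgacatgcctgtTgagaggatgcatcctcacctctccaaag
Rnps1-ps: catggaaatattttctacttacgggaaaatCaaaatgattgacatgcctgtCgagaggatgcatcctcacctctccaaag
Vcp: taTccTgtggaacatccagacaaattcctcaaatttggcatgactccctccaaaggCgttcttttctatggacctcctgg
Vcp-rs: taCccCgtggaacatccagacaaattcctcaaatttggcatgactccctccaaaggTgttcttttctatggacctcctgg
These are the 80-base coding stretches within a single exon in which each pair differed most, by 2 bases for Ahcy, 1 for Capza1, 2 for Rnps1 and 3 for Vcp. Over the whole alignment the pairs were 99.71%, 99.55%, 99.41% and 99.05% identical.

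Ahcy, which removes S-adenosylhomocysteine, was at 39, 37.4 and 33.9 CPM in the cluster knockout and at 12.5, 12 and 11.6 CPM in the Ms4a6c knockout (log2 fold change 1.61 ± 0.07, SE; edgeR adjusted p = 3.13e-06). Its copy Gm4737 was at 0.852, 0.498 and 0.952 CPM against 33.2, 34 and 31.8 CPM (log2 fold change -5.34 ± 0.29, SE; edgeR adjusted p = 1.12e-05). The share of the summed level assigned to the copy was 2.08% in the cluster knockout, 1.71% in wild type and 73.2% in the Ms4a6c knockout. For Capza1, a subunit of the actin capping protein, the values were 143, 142 and 140 CPM against 61, 58.1 and 54.7 CPM (log2 fold change 1.29; edgeR adjusted p = 2.02e-06). Capza1-ps1 mirrored it, at 2.35, 1.99 and 2.05 CPM against 58.1, 58.9 and 60.8 CPM (log2 fold change -4.78; edgeR adjusted p = 4.61e-09), and its share was 1.49% in the cluster knockout and 50.6% in the Ms4a6c knockout. Eif3j1, which encodes a subunit of a translation initiation factor, was at 41.6, 60.8 and 42.9 CPM against 14.4, 14.5 and 12.7 CPM (log2 fold change 1.79), while Eif3j2 was at 6.21, 11.3 and 8.92 CPM against 26.4, 26.4 and 25.5 CPM (log2 fold change -1.59). The highest value of Eif3j1 among the 6 knockout mice was that of the gland-rich mouse. Rnps1, a splicing factor, was at 83.5, 74.1 and 80.6 CPM in the cluster knockout against 40.3, 39.1 and 40.1 CPM, while Rnps1-ps had a log2 fold change of -6.08. The lower member was Vcp-rs in the group of the ATPase Vcp, by a log2 fold change of -4.07, and Hist1h2al in that of the histone gene H2ac19, by -5.41.

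When the members of each group were added together, the difference between the lines shrank. The summed level of Ahcy and Gm4737 was 37.5 ± 2.49 CPM (SD, n = 3) in the cluster knockout and 45 ± 1.45 CPM (SD, n = 3) in the Ms4a6c knockout, a log2 fold change of -0.26 ± 0.07 (SE; edgeR adjusted p = 0.207) that ran against the direction of Ahcy itself. Capza1 and Capza1-ps1 summed to 144 ± 1.82 CPM in the cluster knockout, 117 ± 1.79 CPM in the Ms4a6c knockout and 151 ± 2.65 CPM in wild type (SD, n = 3), and theirs was the only sum of the 9 that still passed between the lines, with a log2 fold change of 0.30 ± 0.05 (SE; edgeR adjusted p = 0.0333). The other sums had log2 fold changes between 0.01, for Mfap1b and Mfap1a, and 0.51, for Eif3j1 and Eif3j2, and adjusted p between 0.123 and 0.985. With the groups summed, 73 genes or sums passed between the lines, 40 higher and 33 lower. This alternative was chosen after the data were seen, and the groups were picked for members that moved in opposite directions. The log2 fold change of each sum therefore had to lie between those of its members, so some shrinkage was set by the choice of groups.

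**Figure D3:**
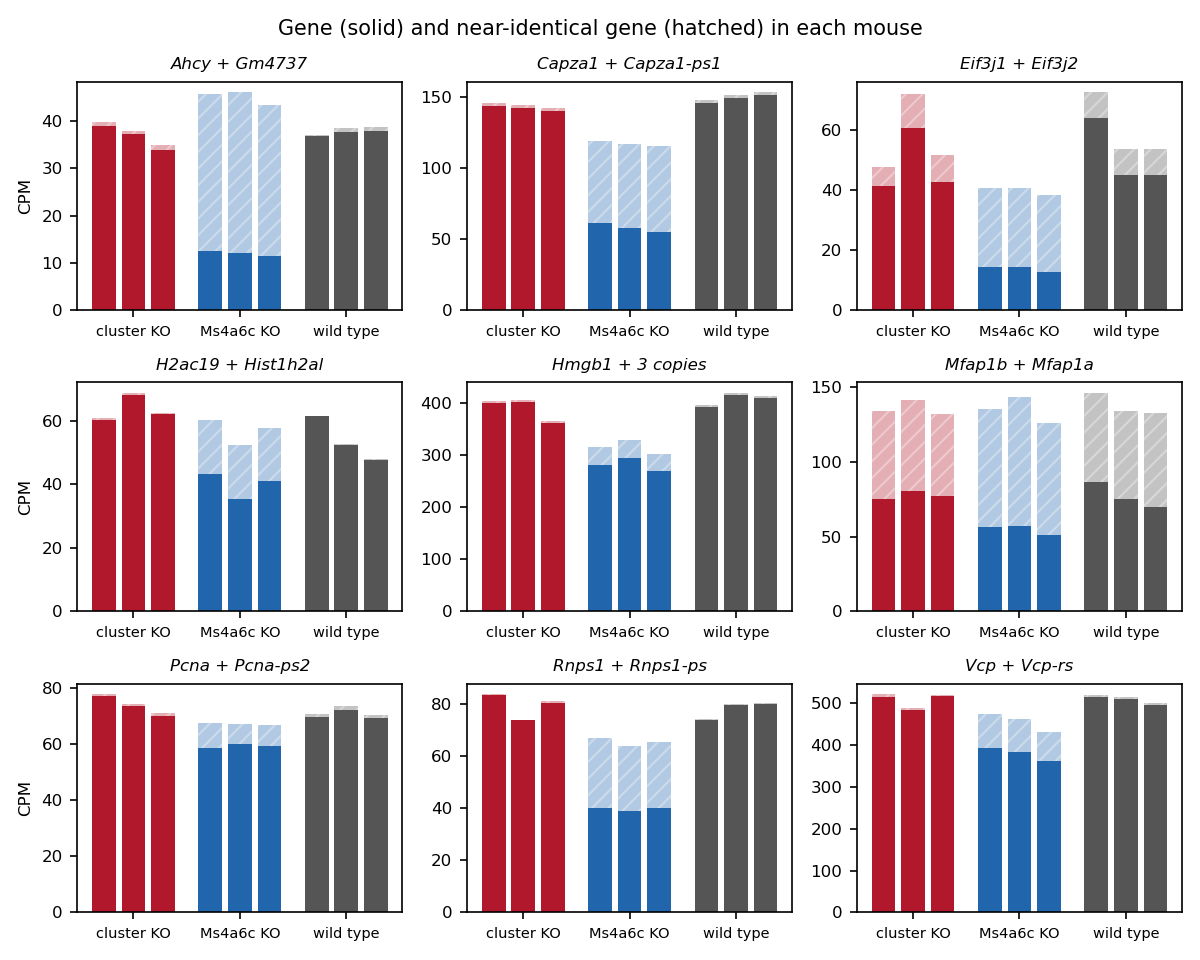
Level in CPM (vertical axes, from 0) of 9 genes (solid) with their near-identical genes stacked on top (hatched) in each of the 9 mice. In the Ms4a6c knockout (blue) the near-identical gene takes between 10.8% (Hmgb1) and 73.2% (Ahcy) of the sum, while in the cluster knockout and in wild type it takes at most 2.08% of the mean in all groups but Eif3j1 and Mfap1b.

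Pseudogenes made up many of the largest changes. Gm8210 was at 33.4, 89.7 and 71.5 CPM in the Ms4a6c knockout and between 0.1 and 0.301 CPM in the cluster knockout (log2 fold change -8.29). Gm45315, 1 of 3 copies of Hmgb1 among the 103 genes, was at 5.7, 4.9 and 8.98 CPM and had 0 counts in the cluster knockout, at least 32.7-fold lower. Tma7-ps was at 0.779, 1.36 and 2.1 CPM in the Ms4a6c knockout and rested on 1 count in the cluster knockout, a call lost in 6 of 18 alternatives. In wild-type mice Gm8210 was at 0.427, 0.555 and 0.171 CPM and Tma7-ps at 0.142, 0.0555 and 0.114 CPM, far below the Ms4a6c knockout.

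The genes that parted the lines were not spread evenly over the genome. Chromosome 2 held 28 of the 103 genes, or 27.2%, with 8.25% of the genes tested, chromosome 12 held 15, or 14.6%, with 3.63% of those tested, and chromosome 3 held 11. Chromosomes 10 and 11 held none of the 103, although 1105 and 1671 genes were tested on them. Grouping the 98 genes outside the Ms4a locus wherever the next gene lay within 5 Mb, a rule chosen after the positions were seen, gave 9 runs of 3 genes or more. These held 50 of the 98 genes (51%) and 2.36% of all genes tested. Each run was drawn from its first to its last gene that passed. Shares of such genes inside the runs are therefore high by construction and measure no enrichment. In all 50 genes the Ms4a6c knockout lay farther from wild type, and 41 passed against wild type in that line. The longest run, chr2:112089786-122809569, held 16 of the 154 genes tested inside it, 9 higher and 7 lower, from Olfr1314 through Bmf, Pla2g4e and Mfap1a to Eif3j1 and Sqor. Runs at chr12:24974925-30911589 (with Id2, Adi1 and Acp1 among its genes) and chr12:51348061-54203860 (G2e3, Coch, Ap4s1 and Egln3) held 5 of 27 and 4 of 13 genes tested. A run of 6 genes at chr3:95526786-96466924 started with the macrophage gene Ctss, and a run of 4 at chr17:24414565-26090337 held Rnps1 and Gng13. Genes within a run moved in both directions in 6 of the 9 runs. Part of these genes were named because they lie in the runs, after their values were seen.

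**Figure D4:**
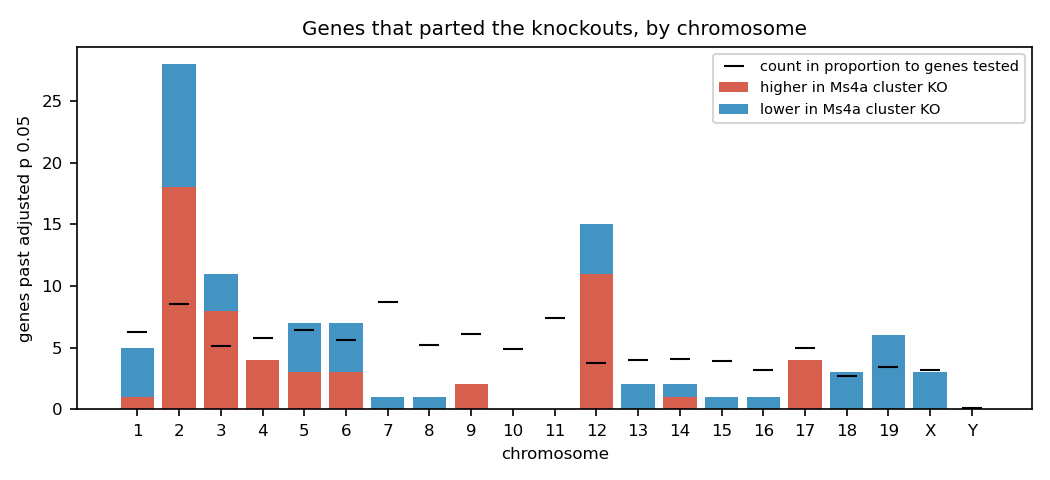
Number of genes with an adjusted p under 0.05 between the lines on each chromosome (bars, split by direction), with the number that would match the chromosome's share of genes tested (black marks). Chromosomes 2, 3 and 12 hold 28, 11 and 15 genes, well above their marks, and chromosomes 10 and 11 hold none.

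Macrophage genes were somewhat higher in the cluster knockout as a list, but a single member passed, beside 0.443% of all genes. Ctss encodes cathepsin S, a protease of antigen-presenting cells. It was at 27.2, 31.1 and 29.7 CPM in the cluster knockout, at 21.4, 19.8 and 19.9 CPM in the Ms4a6c knockout and at 28.6, 25.2 and 27.4 CPM in wild type (log2 fold change 0.52 ± 0.08, SE; edgeR adjusted p = 0.0209). It was the Ms4a6c knockout that lay low, though without passing against wild type (edgeR adjusted p = 0.0738). The call of Ctss was lost without cluster knockout mouse 2 or 3 and without Ms4a6c knockout mouse 2 or 3, while without wild-type mouse 1 there were 2 members that passed, and the adjusted p of Ctss over all alternatives lay between 0.000456 and 0.117. Ctss lies within the run on chromosome 3. The subunits of complement C1q, made by tissue macrophages, came next. C1qc was at 21.4, 25.2 and 21.3 CPM against 13.9, 15.6 and 14.9 CPM (log2 fold change 0.61 ± 0.11, SE; edgeR adjusted p = 0.0506), and C1qb was at 27.2, 29.4 and 23.3 CPM against 16.3, 18.5 and 20.6 CPM (log2 fold change 0.53; edgeR adjusted p = 0.123). Values did not overlap between the lines for either gene, and neither passed. In wild type C1qc was at 20.2, 15.8 and 17.9 CPM and C1qb at 20.8, 19.2 and 22.8 CPM. Unlike for Ctss, the cluster knockout lay farther from wild type for both. The log2 fold changes from wild type were 0.33 against -0.28 for C1qc and 0.34 against -0.18 for C1qb, and none passed. On the other side, F13a1, the A chain of coagulation factor XIII, was at 4.31, 4.19 and 4.41 CPM against 8.9, 7.32 and 5.61 CPM (log2 fold change -0.76; edgeR adjusted p = 0.284), and the scavenger receptor Cd163 and the chemokine receptor Ccr2 had log2 fold changes of -0.73 and -0.47 with overlapping values.

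All 40 genes of the macrophage list were tested, and every one was above 3 counts in each knockout mouse. At an unadjusted p under 0.05, 11 (27.5%) were higher and 1 (2.5%) lower, beside 4.68% and 4.7% of all genes, and 17 of the 40 (42.5%) had values in the cluster knockout that all lay above those of the Ms4a6c knockout, beside 7.86% of all genes. Their median log2 fold change was 0.25 between the lines, against 0.01 over all genes. It was 0.12 from wild type to the cluster knockout and -0.03 from wild type to the Ms4a6c knockout. Without cluster knockout mouse 2 the median between the lines was 0.10. Without both gland-rich libraries it was 0.09, with 9 members higher and 2 lower at an unadjusted p under 0.05, beside 5.47% and 5.11% of all genes in that fit. The summed level was 570, 698 and 509 CPM in the cluster knockout, 486, 470 and 524 CPM in the Ms4a6c knockout and 678, 498 and 501 CPM in wild type. The highest mouse of the cluster knockout and the highest of wild type were the gland-rich libraries, and the lines overlapped. The part of the gland content in this result was not tested further.

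Odorant receptor genes leaned the other way. Of 1117 receptor genes in the table, 1043 were tested and 4 passed (0.384%, beside 0.443% of all genes), 3 lower in the cluster knockout and 1 higher. Olfr1314 was at 0.401, 0.299 and 0.601 CPM in the cluster knockout, at 3.07, 2.36 and 2.36 CPM in the Ms4a6c knockout and at 0.0711, 0.277 and 0.341 CPM in wild type (log2 fold change -2.52 ± 0.40, SE; edgeR adjusted p = 0.0257). It was the only receptor of the 4 that passed against wild type, in the Ms4a6c knockout (edgeR adjusted p = 0.00535), and it lies in the long run on chromosome 2. Olfr11 was at 3.31, 4.49 and 3.91 CPM in the cluster knockout against 8.69, 7.63 and 7.33 CPM (log2 fold change -1.03; edgeR adjusted p = 0.0234), with wild type between them at 5.33, 6.16 and 5.12 CPM. Olfr1258 was at 9.32, 10.3 and 10.4 CPM against 18.9, 14.1 and 17.1 CPM (log2 fold change -0.75; edgeR adjusted p = 0.0284), with wild type at 12.4, 14.3 and 13.9 CPM. Olfr455, the receptor that was higher, was at 42, 34.1 and 29.2 CPM in the cluster knockout, at 23.7, 19.6 and 20.2 CPM in the Ms4a6c knockout and at 25.7, 26.7 and 24.6 CPM in wild type (log2 fold change 0.73; edgeR adjusted p = 0.0441). Each of the 4 calls was lost in 7 to 11 of 18 alternatives. A single receptor passed without cluster knockout mouse 1, Ms4a6c knockout mouse 2 or 3 or wild-type mouse 2, and 2 passed without cluster knockout mouse 2, Ms4a6c knockout mouse 1 or wild-type mouse 3. Next among the higher receptors, Olfr1278 was at 8.47, 10.2 and 9.37 CPM against 2.91, 6.02 and 5.1 CPM (log2 fold change 1.01; edgeR adjusted p = 0.159) and Olfr191 at 16.3, 15.3 and 12.5 CPM against 9.18, 7.38 and 10.4 CPM (log2 fold change 0.71; edgeR adjusted p = 0.189), and neither passed. Against wild type, at 12.2, 9.87 and 13.3 CPM, Olfr1278 was lower in the Ms4a6c knockout (edgeR adjusted p = 0.0448).

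Over all 1043 receptors the median log2 fold change was -0.18, with 135 (12.9%) lower and 41 (3.93%) higher at an unadjusted p under 0.05, beside 4.7% and 4.68% of all genes. In 163 receptors (15.6%) every cluster knockout mouse lay below every Ms4a6c knockout mouse and in 51 (4.89%) above, beside 8.09% and 7.86% of all genes. Wild type lay in the middle, with a median of -0.08 in the cluster knockout and of 0.08 in the Ms4a6c knockout. Without cluster knockout mouse 2 the median between the lines was -0.10. Without both gland-rich libraries it was -0.11, with 134 receptors of 1038 lower and 54 higher, beside 5.11% and 5.47% of all genes in that fit. The median was negative on most chromosomes. The 267 receptors of chromosome 2 had a median of -0.12, the 219 of chromosome 7 of -0.23, the 120 of chromosome 9 of -0.31 and the 58 of chromosome 19, where the Ms4a cluster lies, of -0.18, while the 80 of chromosome 11 had a median of -0.04 and the 25 of chromosome 1 of 0.10. Without both gland-rich libraries the medians of chromosomes 2, 7, 9 and 19 were -0.07, -0.13, -0.20 and -0.18, and those of chromosomes 4, 11, 14 and 15 turned positive, chromosome 11 to 0.03 and chromosome 14 from -0.01 to 0.15. By level of expression the median was -0.26 for 168 receptors with a mean under 1 CPM, -0.21 for 505 between 1 and 5 CPM and -0.11 for 370 above 5 CPM, and -0.19, -0.13 and -0.07 in the same order without both gland-rich libraries. The summed level of the receptors had a log2 ratio of -0.11 between the lines and overlapped, at 6468, 5560 and 6096 CPM in the cluster knockout, 6371, 6662 and 6492 CPM in the Ms4a6c knockout and 6382, 6846 and 6356 CPM in wild type. The lowest of these was the gland-rich cluster knockout mouse, which also had the lowest level of Omp. None of the 66 tested receptor pseudogenes and none of the 14 tested trace amine-associated receptors passed, with median log2 fold changes of -0.13 and -0.27. At an unadjusted p under 0.05, edgeR gave 9 of the pseudogenes and 3 of the trace amine-associated receptors as lower and none as higher, and DESeq2 called 1 pseudogene and no trace amine-associated receptor.

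**Figure D5:**
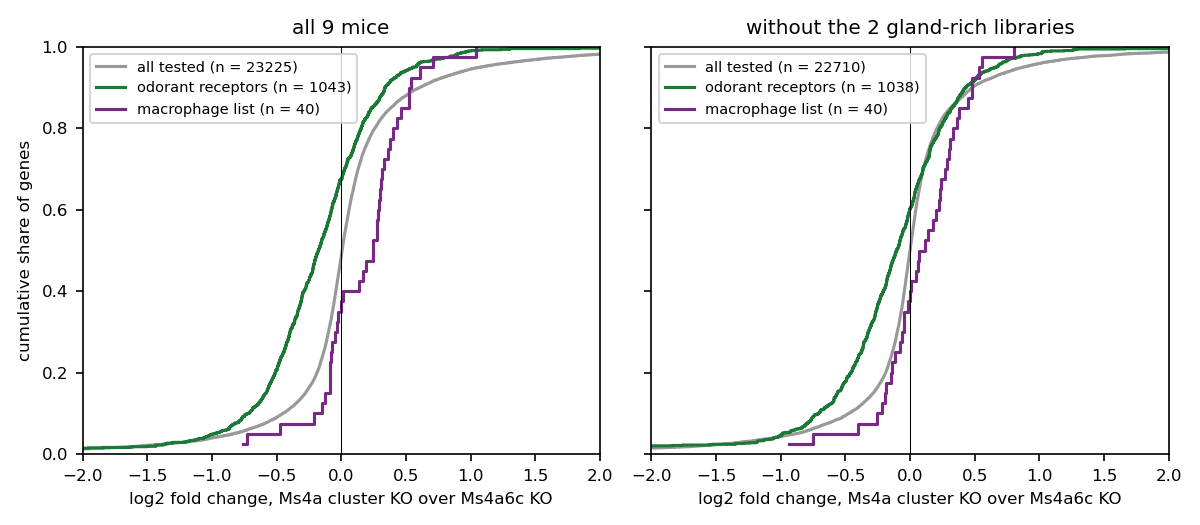
Cumulative share of genes (vertical axis) by log2 fold change of the Ms4a cluster knockout over the Ms4a6c knockout (horizontal axis, shown from -2 to 2) for all tested genes, odorant receptors and the macrophage list, with all 9 mice (left) and without the 2 gland-rich libraries (right). The receptor curve lies to the left of that of all genes (median -0.18) and the macrophage curve to the right (median 0.25), and both come closer to it on the right, at -0.11 and 0.09.

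Of the machinery that the receptors signal through, Gng13 alone parted the lines. All 20 genes of the transduction list were tested, and Gng13 was the only one that passed, beside 0.443% of all genes. Besides Gng13, 4 of the 20 were lower at an unadjusted p under 0.05, a larger share than the 4.7% of all genes. Pde1c, the calcium-dependent phosphodiesterase of olfactory cilia, was at 415, 346 and 383 CPM in the cluster knockout against 440, 474 and 459 CPM (log2 fold change -0.26 ± 0.08, SE; edgeR adjusted p = 0.298). The potassium channel Kcnma1 had a log2 fold change of -0.20 and the calcium-activated chloride channel Ano2 of -0.21, and neither passed. The channel subunit Cnga2, at 989, 780 and 906 CPM against 868, 962 and 859 CPM, and the cyclase Adcy3, at 1294, 1016 and 1230 CPM against 1336, 1248 and 1271 CPM, overlapped between the lines, both added to the named genes after their values were seen. The median over the 20 genes was -0.14. Their summed level had a log2 ratio of -0.11 between the lines, and of -0.02 without cluster knockout mouse 2.

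Of 8 genes of necklace neurons and of other small groups of sensory neurons, none passed in edgeR or DESeq2. In edgeR, 1 was lower at an unadjusted p under 0.05, beside 4.7% of all genes. That gene, Gucy1b2, a subunit of soluble guanylate cyclase, marks sensory neurons apart from the necklace neurons, as Trpc2 does. It was at 1.5, 1.99 and 2.31 CPM in the cluster knockout, at 2.75, 6.7 and 4.52 CPM in the Ms4a6c knockout and at 1.92, 2.11 and 2.33 CPM in wild type (log2 fold change -1.26 ± 0.32, SE; edgeR adjusted p = 0.206). Its values did not overlap between the lines, as was so in that direction for 8.09% of all genes. Gucy2d, the receptor guanylate cyclase that marks necklace neurons, was at 2.45, 1.69 and 3.21 CPM against 1.64, 1.74 and 2.68 CPM (log2 fold change 0.31; edgeR adjusted p = 0.777), and Car2, the carbonic anhydrase of these cells, at 83.1, 71.6 and 87.4 CPM against 80.6, 83.2 and 90.9 CPM (log2 fold change -0.07). Gucy2e, Cngb3 and Trpc2 had log2 fold changes of 0.73, 0.39 and -0.30 and overlapped.

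Of the lists of other cell types, the microvillous and respiratory lists held genes that passed in edgeR, as 0.443% of all genes did. Coch, which encodes the secreted matrix protein cochlin, was at 494, 428 and 466 CPM in the cluster knockout, at 304, 279 and 275 CPM in the Ms4a6c knockout and at 394, 460 and 441 CPM in wild type (log2 fold change 0.69 ± 0.08, SE; edgeR adjusted p = 0.00368). The summed level of its list of 12 microvillous and tuft cell genes, 680, 606 and 652 CPM against 484, 453 and 450 CPM, followed Coch, since the other 11 members did not pass, with Trpm5 at a log2 fold change of -0.01. Agr3 and Agr2, neighbouring genes of the endoplasmic reticulum of ciliated and mucous cells, moved apart. Agr3 was at 22, 20.1 and 22.7 CPM against 13.7, 14 and 15.2 CPM (log2 fold change 0.60; edgeR adjusted p = 0.00887), and Agr2 at 199, 208 and 206 CPM against 250, 251 and 260 CPM (log2 fold change -0.31; edgeR adjusted p = 0.0315). The other 12 tested genes of the respiratory list did not pass. For Agr2, the call was lost in 10 of 18 alternatives and that of Agr3 in 3. Of the 26 lists, 20 held no gene that passed in edgeR, while DESeq2 called 1 to 3 genes in 5 of these 20, and 89 of the 103 genes belonged to no list.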

How the data were processed

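RNA-seq was made by the authors from directional poly-A libraries of the main olfactory epithelium, 1 library a mouse and 3 mice a genotype. The deposited values are expected counts, which the authors estimated with RSEM 1.3.1 after STAR 2.6.1 on GENCODE M25 (GRCm38), with no normalization and no stated filter; the submitters' notes also name DESeq2 1.30.1 in R 4.0.0. RSEM divides reads of near-identical genes by estimate. Groups and replicate numbers came from the labels.

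Expected counts were rounded to whole numbers, and genes with at least 10 counts over the 9 mice were TMM-scaled and fitted in a single model of 3 groups with edgeR 4.0.16 (R 4.3.3; quasi-likelihood F test), with Benjamini-Hochberg adjustment over all 23225 genes and a threshold of 0.05. The SE is the log2 fold change over the square root of F. Folds against a group at 0 used 3 counts per library, ratios on 1 to 3 counts have exact 95% conditional intervals, and reads carry no molecular identifiers, so both cover counting error only. The procedure was tested on simulated counts. Near-identical genes were found with megablast at 90% identity over 300 bases. GENCODE M21, also on GRCm38, gave coordinates; 99.6% of genes matched it by transcript.

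Named genes were the tested genes of the Ms4a locus, list members that passed, the 3 members with the smallest p in each direction of the macrophage, odorant receptor, transduction and necklace lists, the 10 largest changes in each direction without overlap, the 10 smallest adjusted p in each direction among other genes with full symbols, and Wdfy1, Capza1, Ahcy, Eif3j1 and their copies. Which line had moved was read from the larger absolute log2 fold change from wild type. The genes, lists and tests were chosen with earlier results of these data known. Alternatives were DESeq2's size factors, other filters, fits of the 2 compared genotypes, a replicate block, DESeq2 1.42.0, Xist or gland transcripts as a covariate, an adjusted p of 0.01, leaving out each mouse, for summed levels plain library size, means of log values and leaving out the most abundant gene, and, added after seeing the data, leaving out both gland-rich libraries and summing near-identical genes.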

Additional observations from a re-analysis of the deposited data

How the results depend on the processing

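The count of 103 genes between the lines was 271 with DESeq2, 161 with gland transcripts as a covariate, 155 with no filter, 60 at an adjusted p of 0.01, 147 without both gland-rich libraries and 66 to 121 when each mouse was left out; DESeq2 also called all 103. For the cluster knockout against wild type the 6 genes became 18 with DESeq2, 3 at an adjusted p of 0.01 and 3 to 7 without a mouse. For the Ms4a6c knockout the 101 genes became 345 with DESeq2, 199 with the gland covariate, 182 with no filter, 350 without both gland-rich libraries, 58 at 0.01 and 59 to 159 without a mouse. Deviations of same-numbered knockout mice correlated at -0.113, 0.017 and 0.107, and those of different-numbered knockout mice at -0.267 to 0.215. These few values gave no sign that the replicate numbers pair the mice, but they cannot exclude it. With the replicate number as a block, 75 genes passed between the lines, 2 in the cluster knockout against wild type, 71 in the Ms4a6c knockout, 0 macrophage genes and 1 odorant receptor. Called macrophage genes, 1 in the report, were 4 with DESeq2, 2 with edgeR's default filter, no filter, either covariate or without both gland-rich libraries, 0 with the 2 genotypes alone and 0 to 2 without a mouse. Called odorant receptors, 4 in the report, were 24 with DESeq2, 11 with no filter, 10 without both gland-rich libraries, 9 with the gland covariate, 2 with the 2 genotypes alone and 1 to 4 without a mouse. The log2 ratio of summed levels moved from 0.26 to 0.0517 (macrophage) and from -0.11 to -0.266 (odorant receptors) with plain library size, which counts gland transcripts in full. Of 51 called named genes, 40 kept their call and all 51 their direction in every alternative run. Car2, not called, turned from -0.07 to 0.00554 without cluster knockout mouse 2 (-0.132 to 0.00554 over all mice left out) and to 0.00366 without both gland-rich libraries. The cause of these shifts was not tested. Depth limits what can be said of the Ms4a genes near 3 counts.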

Other observations

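Interferon-induced genes were higher in the cluster knockout as a list without any passing. Of 22 tested, edgeR gave 7 as higher and 2 as lower at an unadjusted p under 0.05, beside 4.68% and 4.7% of all genes, with a median log2 fold change of 0.35. Without both gland-rich libraries 4 were higher and 2 lower, beside 5.47% and 5.11% of all genes in that fit, with a median of 0.14. DESeq2 called none of them either. Among genes named after their values were seen, the antiviral sensor Zbp1 had a log2 fold change of 1.15, Oasl2 of 0.63 and Ifit2 of -0.29. Summed levels were 216, 331 and 226 CPM in the cluster knockout against 212, 204 and 204 CPM in the Ms4a6c knockout, the highest being the gland-rich mouse. The summed level of 16 sustentacular cell genes was 21050, 20212 and 22163 CPM against 24131, 25121 and 24178 CPM, without overlap. In wild type it was 20672, 21950 and 21006 CPM. The log2 ratio of this sum between the lines was -0.21, and -0.38 with plain library size. Sums of other lists, such as MHC class II, neutrophil, and endothelium and stroma genes, did not overlap either. Cyp2g1, a detoxifying enzyme of sustentacular cells, had a log2 fold change of -0.34 (edgeR adjusted p = 0.317). None of the 16 passed in edgeR, where 1 was higher and 3 lower at an unadjusted p under 0.05, beside 4.68% and 4.7% of all genes, while DESeq2 called 3 of them and 271 of all genes.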
